A study of Mus musculus with 8 samples.

Results

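Tff3 and 9 genes of the biliary epithelium were followed in the liver of NZO and B6 mice: Epcam, Krt7, Krt8, Krt18, Krt19, Krt23, Sox9, Spp1 and Cldn4. The genes were taken by name, and Tff3 was taken because earlier results of these data had shown it far lower in NZO, so its strain difference and its calls are given as a description, with no p-value, and support nothing. These are 10 of the 22388 genes named on the array and had 12 of its 55681 probes, since Krt8 and Cldn4 had 2 probes each, and every probe was kept apart. Of the 12 probes, 10 exceeded background clearly in every mouse of 1 strain or of both and entered the fit, which held 27639 probes. The others were the Epcam probe and 1 Cldn4 probe.

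Livers of New Zealand Obese mice (NZO/HiBomDife, 4 mice), a strain prone to obesity and diabetes, were compared with those of C57BL/6 mice (B6, 4 mice), which stay lean and resist diabetes. All 8 mice were male, 6 weeks old and fed a diet with 45% fat, so that diet and age were shared and only strain differed by design. Total RNA of liver tissue was hybridised with 1 array per mouse, and mice are named here by strain and number as in the sample labels. The whole tissue was measured, with no sorting of cells, and fewer cells of a type and less RNA per cell cannot be told apart in such samples.

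Bile ducts are lined by cholangiocytes, epithelial cells that make up a small share of the liver and alter the bile on its way to the gut. They carry simple epithelial keratins, of which Krt7 and Krt19 mark ducts in the liver, whereas Krt8 and Krt18 are also the keratins of hepatocytes. Tff3 (trefoil factor 3) is a small secreted peptide of mucous epithelia that protects and helps to restore the epithelial surface, and goblet cells of the intestine are its best known source. Spp1 (osteopontin) and Sox9, a transcription factor of duct formation, are widely used biliary markers, and Spp1 is also made by macrophages.

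The levels of the duct markers rest on single oligonucleotides of 60 bases, and 4 of them, picked by gene, are shown. They are given 5′ to 3′ as in the scanner files, with the mm9 position that the files state. The Epcam probe lay on the plus strand at chr17:88048972-88049800, a span of 829 bases for 60 bases of probe, so that it crosses a splice junction. The Krt7 probe lay on the plus strand at chr15:101253718-101253777, the Krt19 probe on the minus strand at chr11:100002392-100002451 and the detected Cldn4 probe on the minus strand at chr5:135422135-135422194. Each had at least 1 reading frame without a stop codon over its whole length, and their G and C content was 41.7% for Epcam and 55.0% for Krt7, Krt19 and Cldn4.
Epcam: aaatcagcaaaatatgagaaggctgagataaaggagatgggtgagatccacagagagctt
Krt7: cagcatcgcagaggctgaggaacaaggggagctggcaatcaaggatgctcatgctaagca
Krt19: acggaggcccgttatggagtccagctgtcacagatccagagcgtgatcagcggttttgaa
Cldn4: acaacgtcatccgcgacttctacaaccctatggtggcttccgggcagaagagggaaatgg

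The Tff3 signal was high in B6 liver and low in NZO liver. It rests on a single probe, on the minus strand at chr17:31262279-31262338 (mm9). Whether the strains differ in sequence under this probe was not tested. Levels are log2 of the processed signal minus the 75th percentile of the array, so that 0 is the signal of a probe at that percentile. The level was 5.93 in B6 011, 4.84 in B6 010, 6.34 in B6 015 and 5.25 in B6 009, and 1.61 in NZO 007, 0.31 in NZO 003, 0.35 in NZO 009 and 0.59 in NZO 011. All 8 arrays were well above background, and the lowest B6 mouse stood far above the highest NZO mouse. The strain means were 0.72 ± 0.61 in NZO and 5.59 ± 0.67 in B6 (SD, n = 4 each), a log2 difference of -4.87 with a standard error of 0.40, which is a 29.3-fold higher signal in B6.

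**Figure D1:**
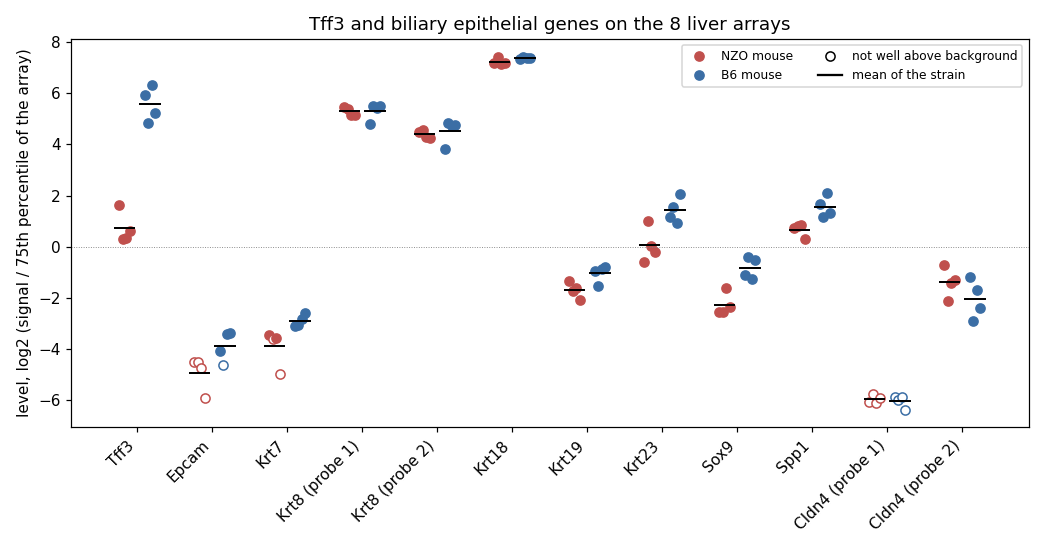
Level of each of the 12 probes in the 8 mice, as log2 of the signal over the 75th percentile of the array, with NZO in red and B6 in blue, open circles where the probe was not well above background and a bar at the mean of the strain. Tff3 shows the widest gap between strains among these probes, Krt8 and Krt18 lie at nearly the same height in both strains, and Epcam is open in all 4 NZO mice.

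Krt19, Krt7, Epcam and Sox9, markers of cholangiocytes, were below the 75th percentile of every array. Krt19, detected in all mice, had a level of -1.36 in NZO 007, -1.74 in NZO 003, -1.61 in NZO 009 and -2.10 in NZO 011, against -0.98 in B6 011, -1.55 in B6 010, -0.86 in B6 015 and -0.82 in B6 009. The strains overlapped, since B6 010 was below NZO 007. The means were -1.70 ± 0.31 in NZO and -1.05 ± 0.34 in B6 (SD, n = 4 each), a log2 difference of -0.65 with a standard error of 0.21.

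Krt7 was near the limit of detection. Its level was -3.45 in NZO 007, -3.62 in NZO 003, -3.60 in NZO 009 and -5.00 in NZO 011, where NZO 003 and NZO 011 were not well above background. The 4 B6 mice had -3.13, -3.09, -2.83 and -2.62 and were all above background and above every NZO mouse. The log2 difference was -1.0 with a standard error of 0.34, it was -0.64 without NZO 011, and it was -0.05 when the background was corrected by normexp, a model of signal over the local background that draws weak signals together.

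Epcam, an adhesion molecule of cholangiocytes and of most other epithelia, was not well above background in any NZO mouse. In B6 it was detected in 3 of 4 mice, at -4.11 in B6 011, -3.43 in B6 015 and -3.41 in B6 009, with -4.63 in B6 010. The measured means were -4.95 ± 0.66 in NZO and -3.90 ± 0.59 in B6 (SD, n = 4 each). NZO was set to the dimmest signal that counted as detected on each array, or to the Epcam signal itself where that was brighter. The mean of B6 was then 1.18-fold higher. This is no strict lower limit. Some undetected signals were brighter, such as Krt7 in NZO 003 at -3.62, where the dimmest detected signal was -4.24. The mean of B6 includes B6 010, which was itself not well above background, and the measured levels of the strains overlapped.

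Sox9 was lower in NZO. It had a level of -2.59 in NZO 007, -2.56 in NZO 003, -1.64 in NZO 009 and -2.38 in NZO 011, and of -1.12 in B6 011, -0.40 in B6 010, -1.27 in B6 015 and -0.51 in B6 009. The strains did not overlap, and NZO 009 came closest to the B6 mice. The log2 difference was -1.46 with a standard error of 0.28, a 2.76-fold higher signal in B6. It shrank to -0.58 with normexp.

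Spp1 had a level of 0.72 in NZO 007, 0.80 in NZO 003, 0.83 in NZO 009 and 0.30 in NZO 011, against 1.65 in B6 011, 1.14 in B6 010, 2.11 in B6 015 and 1.33 in B6 009. No NZO mouse reached the lowest B6 mouse. The log2 difference was -0.89 with a standard error of 0.22.

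Markers of Kupffer cells and macrophages, which also make Spp1, held 2 probes called lower of 7 fitted (5.28% over all probes tested), and B6 015 was the highest mouse for Spp1 and for their summed signal. The sum of their signals, in units of the 75th percentile and with 1 probe for each of 6 genes, was 45.6 ± 3.92 in NZO and 84.2 ± 17.3 in B6 (SD, n = 4 each), with 109.0 in B6 015, and Clec4f was the most abundant of them. Their part in the Spp1 difference was not tested.

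Krt23, a keratin of ductular cells, varied within each strain. It had a level of -0.63 in NZO 007, 1.01 in NZO 003, 0.02 in NZO 009 and -0.22 in NZO 011, and of 1.15 in B6 011, 1.55 in B6 010, 0.93 in B6 015 and 2.04 in B6 009. NZO 003 was above B6 015, so the strains overlapped. The log2 difference was -1.37 with a standard error of 0.37. It was -0.23 between NZO 003 and the mean of B6 010 and B6 015, the 3 mice of the only slide that held both strains, and it was -0.97 and -2.22 within the 2 scan days.

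The keratins shared with hepatocytes lay at nearly the same height in both strains. Krt18 had a mean level of 7.24 ± 0.14 in NZO and 7.39 ± 0.04 in B6 (SD, n = 4 each), a log2 difference of -0.15 with a standard error of 0.10. The 2 Krt8 probes differed by -0.01 and -0.14 on the log2 scale, with standard errors of 0.18 and 0.23. Both Krt8 probes were lowest in B6 011, at 4.79 and 3.83.

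Cldn4, a tight junction protein of biliary and other epithelia, did not differ clearly between the strains. Its detected probe had a level of -0.71 in NZO 007, -2.14 in NZO 003, -1.42 in NZO 009 and -1.31 in NZO 011, and of -1.18 in B6 011, -2.92 in B6 010, -1.70 in B6 015 and -2.41 in B6 009. The strains overlapped widely, and the log2 difference was 0.66 with a standard error of 0.42, the only one above 0 among the 10 fitted probes. The other Cldn4 probe was not well above background in any of the 8 mice.

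A probe was called when limma gave a Benjamini-Hochberg adjusted p of at most 0.05 over all 27639 probes and the log2 difference was at least 0.7 in either direction. Of the 10 fitted probes, 4 were called as lower in NZO (Tff3, Sox9, Krt23 and Spp1) and 0 as higher, where 5.28% of all probes tested were called lower and 4.33% higher. With the unadjusted p of 0.05 used in the study's methods, Krt7 was called as well, which made 5 lower where 7.08% of all probes were lower and 5.16% higher. The Krt7 probe entered the fit only through B6, so its call supports nothing. Tff3, Sox9, Krt7 and Spp1 had no overlap between the strains, as had 10.7% of all probes with NZO lower and 11.3% with NZO higher. For Krt7 this rests in part on NZO 003 and NZO 011, where it was not well above background. The genes were chosen on this contrast, which fixed the call of Tff3, and nothing is read from these shares. Over all probes 1198 were called higher and 1460 lower, and with the table of raw intensities as deposited 575 and 1421, so that the share of higher among called probes moved from 45.1% to 28.8%.

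With any 1 of the 8 mice left out, Tff3 stayed between -5.17 and -4.62 and Sox9 between -1.68 and -1.32, and Sox9 was called in all 8 fits. Krt23 was called in 1 of the 8 fits, that without NZO 003, and ranged from -1.69 to -1.15. Krt19, not called with all mice, was called in 1 of the 8 fits, that without B6 010, and ranged from -0.82 to -0.52. Spp1 was called in 1 of the 8 fits, that without B6 010, and ranged from -1.03 to -0.71.

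**Figure D2:**
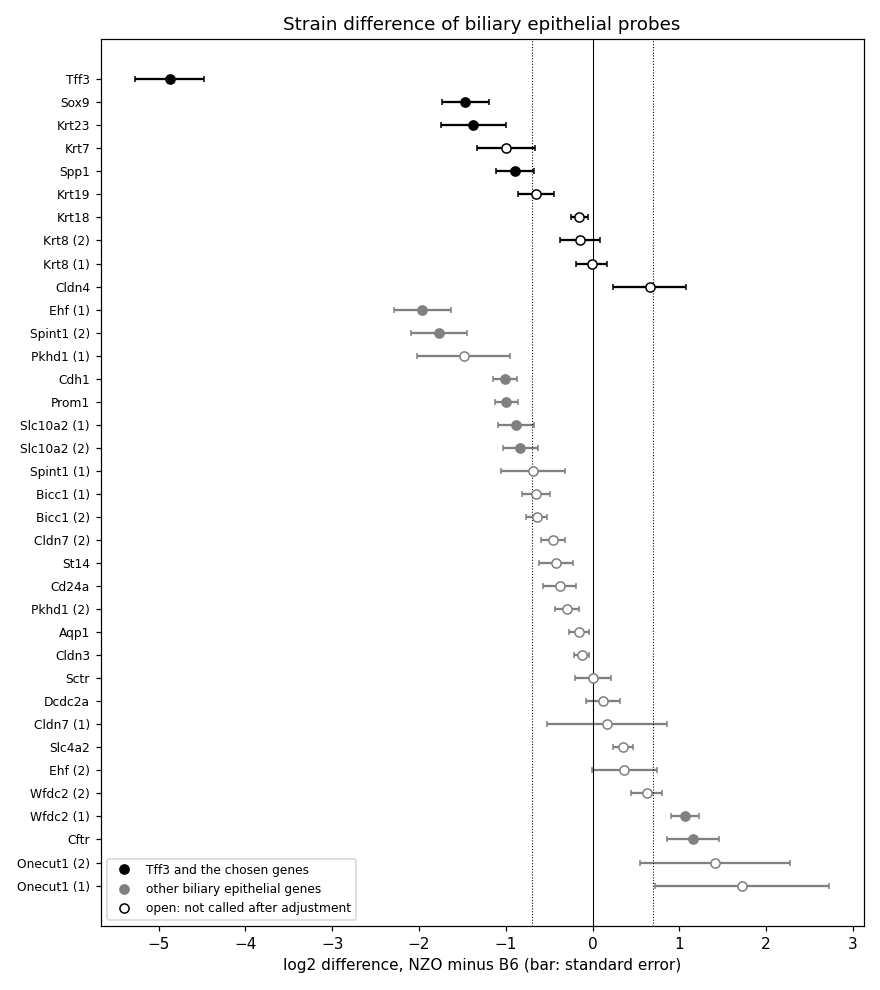
Log2 difference between strains (NZO minus B6) of the 10 fitted probes in black and of 26 probes of other biliary epithelial genes in grey, with bars for the standard error, filled circles for called probes and dotted lines at -0.7 and 0.7. Tff3 lies at -4.87, and all other probes lie between -1.96 and 1.72.

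The question set for this comparison was how far the content of bile ducts could go with the Tff3 difference. The summed signal of Epcam, Krt7, Krt19 and Sox9 was 0.690 in NZO 007, 0.593 in NZO 003, 0.768 in NZO 009 and 0.472 in NZO 011, and 1.14 in B6 011, 1.26 in B6 010, 1.20 in B6 015 and 1.53 in B6 009. The strains did not overlap in this sum, and the NZO mean was 0.493 times the B6 mean. Krt19 and Sox9 made up most of the sum. By mean log2 level, the NZO signal was 0.636 times that of B6 for Krt19, which overlapped between the strains. For Sox9 it was 0.362 times, for Krt7 0.5 and for Epcam 0.482. The sum holds weak signals, since Epcam was undetected in NZO, and with normexp the differences of Krt7, Krt19 and Sox9 shrank to -0.05, -0.27 and -0.58. Over the 9 chosen genes other than Tff3 the ratio was 0.904, mostly set by Krt18, the brightest, and over the 24 other biliary genes, led by Onecut1, it was 1.15. Both sums overlapped between the strains and, with their brightest genes also made by hepatocytes, are no measure of duct content. The Tff3 signal of NZO was 0.0341 times that of B6.

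The ratio of Tff3 to each duct gene was formed on each array, and such a ratio shows unequal change only. On the log2 scale, the ratio of Tff3 to Krt19 differed by -4.22 between NZO and B6, with 2.97, 2.06, 1.96 and 2.70 in the NZO mice and 6.91, 6.38, 7.20 and 6.07 in the B6 mice. The ratio to Sox9 differed by -3.41 and the ratio to Spp1 by -3.98. None of these 3 ratios overlapped between the strains. Each ratio holds the level of Tff3, which was chosen for its strain difference, so this separation supports nothing. What set any of these differences was not tested.

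The order of the mice within a strain was the same as that of Tff3 for few duct genes and not for the others. With 4 mice in a strain and many probes compared, such matches can arise by chance, and nothing is read from them. Among B6 mice Spp1 had the same order as Tff3, from B6 015 over B6 011 and B6 009 to B6 010, and among NZO mice the detected Cldn4 probe had it, from NZO 007 over NZO 011 and NZO 009 to NZO 003. Krt19 was lowest in B6 010 and highest in NZO 007, as Tff3 was, but lowest in NZO 011. Sox9 was highest in B6 010, where Tff3 was lowest, and Sox9 and Krt23 were lowest in B6 015 and NZO 007, where Tff3 was highest. No correlation across mice was computed, since each strain had 4 mice and the strains formed separate clusters.

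**Figure D3:**
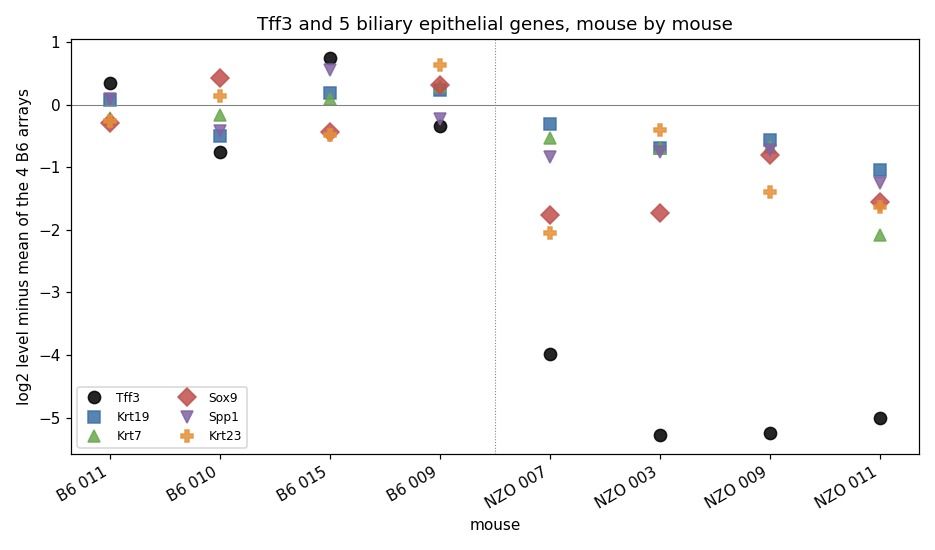
Level of Tff3 and of 5 biliary epithelial genes in each mouse, on the log2 scale, relative to the mean of the 4 B6 mice, which is the line at 0. The black points of Tff3 in NZO lie between 3.98 and 5.28 below that mean, apart from all other points, which in NZO lie at most 2.09 below.

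Slide and scan day were given by the file headers. The 8 arrays were on 5 slides, 1 of which held both strains (NZO 003, B6 010 and B6 015), and were scanned on 2 days that both held both strains. Within the scan days the Tff3 difference was -5.17 (3 NZO and 2 B6 mice) and -3.98 (1 NZO and 2 B6 mice), and on the slide with both strains it was -5.27. Krt19 differed by -0.61 and -0.46 within the days, Sox9 by -1.36 and -1.77, and Spp1 by -0.98 and -0.77.

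A wider list of 24 genes of the biliary epithelium moved in both directions. Of its 37 probes, 27 from 19 genes entered the fit. Of these, 6 were called lower in NZO, 2 were called higher and 19 were not called, against 5.28% lower and 4.33% higher over all probes tested. Of the 8 called probes, 3 entered the fit only through the strain in which they were high, those of Ehf and Spint1 through B6 and that of Cftr through NZO, and their calls support nothing. The median log2 difference was -0.29, where that of all probes tested was 0.01.

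Among the probes called lower were those of Cdh1 and Prom1. Cdh1 (E-cadherin), which joins epithelial cells and is also made by periportal hepatocytes, was at 1.82, 1.93, 2.29 and 1.86 in NZO and at 3.04, 3.16, 2.84 and 2.90 in B6, a log2 difference of -1.01 ± 0.14 (SE, limma adjusted p = 0.00162). Prom1 (CD133), a surface protein of duct and progenitor cells, was at -1.80, -2.05, -1.75 and -2.11 in NZO and at -0.78, -1.22, -0.88 and -0.85 in B6, a difference of -0.99 ± 0.14 (SE, limma adjusted p = 0.00192). Neither gene overlapped between the strains, and both were called with any 1 mouse left out. Prom1 was not called with normexp.

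Epithelial regulators were closer to background. An Ehf probe, for a transcription factor of epithelial cells, was called lower (limma adjusted p = 0.00478) and was not well above background in any NZO mouse. With NZO set as for Epcam it was 2.04-fold higher in B6, again no strict lower limit. The other Ehf probe was detected in 4 NZO and 3 B6 mice and differed by 0.37 ± 0.38 (SE), so the 2 probes disagree. A probe of Spint1, a protease inhibitor of epithelial membranes, was also called lower (limma adjusted p = 0.00759) and undetected in NZO. By the same measure it was 1.66-fold higher in B6. The other Spint1 probe differed by -0.68 ± 0.37 (SE) and was not called. With normexp or with the deposited table, neither of these called probes passed.

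Of the transport genes, Slc10a2 had probes called lower and Cftr a probe called higher. Slc10a2, the bile acid uptake carrier of cholangiocytes and ileum, fell by 0.88 and 0.83 on the log2 scale on 2 probes (limma adjusted p = 0.0228 and 0.0285), the first named 9130221J18Rik in the files, a synonym of Slc10a2 in the gene table, and the calls were lost in 4 and 5 of the 8 fits with 1 mouse left out, among them that without B6 015, which was the highest B6 mouse on both probes. Cftr, the chloride channel of the duct surface, was at -2.52, -2.40, -2.13 and -3.50 in NZO and at -3.71, -3.65, -3.53 and -4.26 in B6, where 3 of 4 mice were above background. It was called higher by 1.15 ± 0.30 (SE, limma adjusted p = 0.0372), and the call held in 1 of the 8 fits with a mouse left out, that without NZO 011. It differed by 0.38 with normexp and by 0.36 with the deposited table and was called in neither, nor with scan day as a term. Aqp1, a water channel of ducts and endothelium, had means that differed by -0.16 ± 0.12 (SE) and was not called, as was Slc4a2, the anion exchanger of bicarbonate secretion, at 0.35 ± 0.12 (SE).

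Wfdc2, a secreted protease inhibitor of epithelia, was called higher on 1 probe, by 1.06 ± 0.16 (SE, limma adjusted p = 0.00284), and was 0.62 ± 0.18 (SE) higher on its other probe, which was not called. The call held with any 1 mouse left out, with normexp (0.78), with the deposited table (0.72) and with slide as a fixed term (1.38). It was lost with mouse number as a term (0.99). Bicc1, an RNA-binding protein of tubular epithelia, was 0.65 lower on both of its probes, with no overlap of the strains, but under the fold limit. Cldn3, a tight junction protein, differed by -0.12 ± 0.09 (SE) and was not called. Among the genes without a fitted probe, Ggt1 was below background in all mice, and Muc1, Tspan8 and Elf3 were detected in some mice only.

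The other trefoil peptides gave no second view of Tff3. Both Tff1 probes, which the files place on chromosome 5 and not beside Tff3, were not well above background in any mouse, and the Tff2 probe was above background in 2 NZO and 3 B6 mice, with levels from -4.78 to -2.74 in all 8 mice. Of 9 mucous secretory genes with a probe, 4 entered the fit with 1 probe each and 1 was called higher, where 5.28% of all probes tested were called lower and 4.33% higher, with a median of -0.29. This was a probe of Fcgbp, a mucus protein named for binding the Fc part of antibodies, which was at -3.35, -3.07, -3.24 and -3.31 in NZO and at -5.22, -3.88, -5.02 and -6.57 in B6 (limma adjusted p = 0.0305). Among B6 mice B6 010 alone was well above background, so that the measured difference of 1.94 ± 0.48 (SE) rests on values not well above background. The probe entered the fit only through NZO, and its call supports nothing. The difference was 0.38 with normexp and 0.43 with the deposited table, not called in either, and the call held in 2 of the 8 fits with a mouse left out. Muc5ac, the most abundant of the list, differed by -0.30 ± 0.20 (SE), and Muc2, Retnlb and Clca1, genes of intestinal goblet cells, were below background throughout.

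Markers of intestine and pancreas were given to look for tissue carried over at dissection. Of 6 exocrine pancreas genes, 4 were below background in all mice, and the summed signal was 1.84 ± 0.398 in NZO and 1.56 ± 0.203 in B6 (SD, n = 4 each), with Ctrb1 the most abundant. Of 6 intestinal genes, Vil1 and Cdh17 were below background in all mice, while Fabp2 and Lgals4 were detected in all mice and neither was called, with Fabp2 the most abundant and summed signals of 107.0 ± 27.3 in NZO and 94.6 ± 13.6 in B6 (SD, n = 4 each). Of 2 pancreas and 4 intestine probes fitted 0 were called with or without adjustment, where 5.28% of all probes tested were called lower and 4.33% higher.

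Pathways that act on duct cells held 3 called probes among 16 fitted, where 5.28% of all probes tested were called lower and 4.33% higher. Among 9 fitted probes of the Notch pathway, which directs duct fate, a Notch1 probe was called higher by 1.03 ± 0.20 (SE, limma adjusted p = 0.00995) and Hey1, a Notch target gene, lower with a difference of -1.10 ± 0.28 (SE, limma adjusted p = 0.0318), and the median was -0.08. The Hey1 probe entered the fit only through B6, and its call supports nothing. Among 7 of the Yap pathway, which governs growth of the biliary epithelium, Ccn1, a matrix protein and target of Yap, was called lower with a difference of -2.16 ± 0.39 (SE, limma adjusted p = 0.00692), and the median was -0.02. The Hey1 call was lost in 5 of the 8 fits with a mouse left out, and those of Notch1 and Ccn1 in 0. Notch1 (0.66 and 0.58) and Hey1 (-0.11 and -0.49) were not called with normexp or with the deposited table. Ccn1 (-1.20 and -1.79) was called in both, but not with slide as a fixed term (-2.45).

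Genes of the ductular reaction, the spread of small ducts in injured liver, were called lower in NZO on 4 of 7 fitted probes and higher on 1, where 5.28% of all probes tested were called lower and 4.33% higher, with a median of -1.12. Cd44, a hyaluronan receptor, fell by 1.33 on the log2 scale with a standard error of 0.14 on 1 probe (limma adjusted p = 0.000385). The Cd44 difference was -0.82 with normexp, where it was called, and -1.45 with slide as a fixed term, where it was not. Vcam1, an adhesion molecule for leukocytes, fell by 1.12 and 0.80 on 2 probes (limma adjusted p = 0.00257 and 0.0254). The call of the second Vcam1 probe was lost in 5 of the 8 fits with a mouse left out, and its difference was -0.23 with normexp and -0.59 with the deposited table, not called in either. Lcn2, an iron-binding protein of inflamed epithelium and hepatocytes, was at 0.41, -0.43, -0.41 and -0.68 in NZO and at 2.29, 1.13, 4.28 and 2.0 in B6. B6 015 was the highest for Lcn2 as it was for Tff3 and for the macrophage markers Clec4f (5.46) and Marco (4.895). The part of macrophages in this list was not tested. The log2 difference of Lcn2 was -2.70 ± 0.61 (SE, limma adjusted p = 0.0203). The call was lost in 4 of the 8 fits with a mouse left out, and the difference was -2.08 without B6 015, where it was called. Afp, a fetal hepatocyte protein, rose by 0.73 ± 0.13 (SE, limma adjusted p = 0.00619), a call lost in 3 of the 8 fits with a mouse left out, with normexp (0.51) and with the deposited table (0.40).

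**Figure D4:**
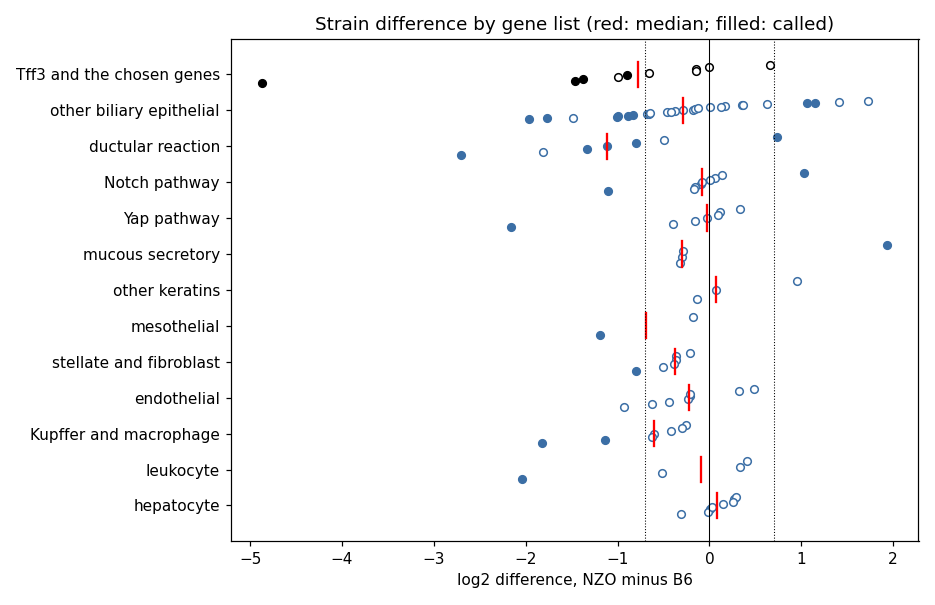
Log2 difference between strains (NZO minus B6) of every fitted probe of 13 gene lists, with 1 row for each list, filled circles for called probes, a red bar at the median of the list and dotted lines at -0.7 and 0.7. The hepatocyte probes lie between -0.31 and 0.29, and the Tff3 point at -4.87 lies apart from every list.

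Other liver cells were looked at beside the ducts. The 8 hepatocyte probes, led by Alb, held 0 called probes with or without adjustment and had a median of 0.09, and the abundant liver genes were as high as the label of the tissue asks, with Alb at 10.66 or more in every mouse. Over all probes tested 5.28% were called lower and 4.33% higher. Of the hepatocyte probes, 4 had no overlap with NZO higher and 0 with NZO lower, as had 11.3% and 10.7% of all probes tested. Their summed signal in NZO was 1.13 times that in B6. Of the Kupffer cell and macrophage probes 2 of 7 were called lower, Clec4f by -1.13 ± 0.13 (SE, limma adjusted p = 0.00085) and Marco by -1.83 ± 0.36 (SE, limma adjusted p = 0.0114), and 0 were called higher, with a median of -0.60. Of the mesothelial probes 1 of 2 was called lower (Wt1, -1.20 ± 0.31 (SE, limma adjusted p = 0.0379), detected in 2 NZO mice), of the stellate cell and fibroblast probes 1 of 6 (Col3a1, -0.80 ± 0.21 (SE, limma adjusted p = 0.0376)) and of the leukocyte probes 1 of 4 (Itgax, -2.04 ± 0.53 (SE, limma adjusted p = 0.0358), detected in 2 NZO mice). Itgax differed by -0.37 with normexp, where it was not called, and by -0.86 with the deposited table, and Wt1 by -0.12 and -0.41, called in neither. Both Itgax and Wt1 entered the fit only through B6, and their calls support nothing. The calls of Wt1, Col3a1 and Itgax each held in 1 of the 8 fits with a mouse left out, and of 8 endothelial and 3 other keratin probes 0 were called after adjustment and 1 of each without it.

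Genes with a profile like that of Tff3 were ranked over the 8 arrays by the root mean square difference between profiles, each centred on its own mean, among 24446 other probes above background on all arrays. This measure uses the strain difference itself, and most of the likeness lies there. The 5 nearest probes with a matched gene were those of Wfdc21, a small secreted protein with a whey acidic protein domain (0.48), Ifi203, an interferon-induced gene (0.66), Cyp39a1, an oxysterol hydroxylase of bile acid synthesis (0.68), Ddah1, which degrades methylated arginines (0.69), and Cib3, a calcium-binding protein (0.72). Wfdc21 was at 8.14 ± 0.19 in B6 and 2.88 ± 0.30 in NZO (SD, n = 4 each), and among B6 mice it was highest in B6 015 and lowest in B6 010, as Tff3 was. Since Wfdc21 was picked for its likeness to Tff3 over the same arrays, this order supports nothing. By the same measure Sox9 ranked 358, Krt23 538, Spp1 581 and Krt19 1092 of the 24446 probes, an order that follows the sizes of the strain differences.

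Tff3 lies on chromosome 17 in a cluster with Tff1 and Tff2. The mouse gene table lists 21 other genes whose start is within 500 kb of that of Tff3, of which 11 had a probe in the fit, 14 probes in all. Of these 1 was called lower and 1 higher, where 5.28% of all probes tested were called lower and 4.33% higher. The probe called lower was that of Pde9a, a phosphodiesterase of cyclic GMP, which ranged from 1.22 to 1.91 in NZO and from 2.47 to 2.67 in B6 and fell by 0.94 on the log2 scale with a standard error of 0.16 (limma adjusted p = 0.00512). One Rsph1 probe, for a protein of motile cilia, was called higher (limma adjusted p = 0.0157). It was not well above background in any B6 mouse and entered the fit only through NZO, so its call supports nothing. With B6 set in the way used for Epcam in NZO, this probe was 2.07-fold higher in NZO, which is no strict lower limit. The call was lost with normexp and with the deposited table. The other 12 probes were not called, among them Abcg1, a sterol exporter, at -0.38 ± 0.12 (SE) and Tmprss3, a membrane protease, at 0.37 ± 0.26 (SE).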

How the data were processed

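RNA of 8 mouse livers (4 NZO, 4 B6) was measured with 1-colour Agilent arrays, 1 per mouse. The authors deposited the scanner output, whose intensity values were made with Agilent Feature Extraction (11.0.1.1 in the file headers, 9.1 in the submitters' processing notes). Its processed signal is background-subtracted and detrended, with no scaling between arrays. A table named as normalized equalled the raw median intensity for 59305 of 59305 spots on each array (tolerance 0.01) and served as an alternative. For the mouse arrays the paper refers to earlier studies, and no normalization is named in the sources used here.

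Spots flagged as outliers (96 to 137 on an array) and control spots were removed, the 75th percentile of log2 signal was subtracted and spots of a probe were averaged. Probes well above background on all 4 arrays of a strain were kept. limma 3.58.1 (R 4.3.3) compared the strains without a block, with Benjamini-Hochberg adjustment. It was tested on simulated data, where 60% of probes changed by 1 on the log2 scale were recovered. Python 3.11.15 with pandas 2.3.3 made the tables. Accessions in the files matched 27656 probes to the gene table of GRCm38.p6, which gave gene names and the neighbours of Tff3 but no positions.

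The genes and lists were chosen with earlier results of these data known. Named were all 10 genes, called genes of the lists (at most 4 for a list outside the biliary and mucous ones), the 5 profiles most like Tff3 and the called neighbours. Single values of 2 genes of the wider biliary list are not reported here. The labels do not say whether mice shared a litter or cage. The median raw intensity was 1.72 to 2.00 times the local background, so low levels are imprecise. The number of arrays also limits the precision, and 1 of 5 slides held both strains. Normalization, background correction, the filter, slide, scan day, mouse number, the methods' test and each mouse were varied.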

Additional observations from a re-analysis of the deposited data

Results flagged for a closer look

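In 17 of 166 groups of 4 mice, 1 mouse stood far from the other 3 for a probe of a gene named here (by the 95% limit of Dixon's ratio of the gap to the nearest mouse over the range), where chance gives about 1 in 20 such groups. Krt7 in NZO 011 was low at -5.00 and not well above background. Both Krt8 probes were low in B6 011, at 4.79 and 3.83, and Krt18 was high in NZO 003 at 7.45. One Slc10a2 probe was high in B6 015 at 1.86, a Spint1 probe was low in B6 010 at -3.87, and Itgax was high in B6 015 at -1.18. A Cd44 probe other than the called one was high in B6 015 at 1.25, and 3 Lgals4 probes were high in B6 010, at 2.62, 2.31 and 2.58. A Tmprss3 probe was high in NZO 003 at 5.20, and Ctrb1 was low in B6 011 at -0.23. Agr2 in NZO 009 (-2.06) and Cdx2 in NZO 011 (-0.87) were high, each above background in that mouse alone. Muc1 in B6 009 (-5.94) and Tspan8 in B6 010 (-4.56) were low.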

How the results depend on the processing

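The Tff3 difference lay between -5.27 and -4.58 under the other settings it was fitted in, which leave out the fit without a filter and the Welch test, and between -5.17 and -4.62 with 1 mouse left out. The 2658 probes called in all became 1198 with normexp background correction, 1481 with slide as a fixed term and 1721 with the methods' t-test with Welch correction (2900 at its unadjusted threshold), and 2336 to 2668 with 1 mouse left out. The 8 called probes of the other biliary genes became 4, 2 and 3 under these settings, and 5 to 10 with 1 mouse left out, with 5 without B6 015 and 5 without NZO 007. The cause was not tested, except that slide as a fixed term leaves only the slide with both strains to compare them. Mouse numbers 009 and 011 occur in both strains, and the deviations of same-numbered mice from their strain means correlated at -0.26 and -0.00406. These values cannot show whether same-numbered mice shared more than a number. With mouse number as a replicate block, 206 of all probes (4170 unadjusted) and 0 of the other biliary probes (9 unadjusted) were called, and Tff3 differed by -5.12. For the 29 named probes outside the chosen genes, 301 of 435 values kept their call, 134 lost it and 0 changed direction, and 4 probes were called throughout, those of Wfdc21, Cyp39a1, Ddah1 and Cib3, which were picked for a profile like that of Tff3, and 0 probes of the gene lists. Among the chosen genes, Sox9 (-1.19 and -1.72), Krt23 (-1.70 and -0.23) and Spp1 (-0.93 and -0.83) were not called under the block or with slide as a fixed term, nor Sox9 (-0.58) with normexp and Krt23 with scan day or slide as a random block. Krt7 became -0.05 and Krt19 -0.27 with normexp, and Krt7 -0.36 with the deposited table, which shifted the median of all probes to -0.15. Krt18 became 0.03 with slide as a fixed term. Signal near background limits the values of Epcam, Krt7, Ehf and Spint1, among others.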

Other observations

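Onecut1 (HNF6), a transcription factor of hepatocytes and bile duct formation, was the most variable of the biliary genes within 1 strain and was singled out after its values were seen. On its brighter probe it was at 6.04 in B6 011 and 6.19 in B6 009 but at 2.09 in B6 010 and 3.89 in B6 015, and between 5.45 and 6.56 in the 4 NZO mice. Its other probe gave the same order, with 1.43, 1.54, -3.26 and -0.79 in these B6 mice and 0.85 to 2.04 in NZO. B6 010 and B6 015 shared a slide and a scan day with NZO 003, which was at 6.22 on the brighter probe.

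Agr2 and Cdx2, genes of mucous and intestinal epithelium, were above background in a single mouse each and were also singled out after their values were seen. Agr2, a protein-folding enzyme of mucous cells, was at -2.06 in NZO 009 and between -6.37 and -4.94 in the other mice. Cdx2, a transcription factor of the intestine, was at -0.87 in NZO 011 and between -6.79 and -4.86 in the other mice. Tff3 was not highest among NZO mice in either of them.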
